A study of Homo sapiens with 12 samples.

Results

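The chromatin of the ERBB receptor and EGF ligand genes was examined in 2 cell lines with an inducible MUC1 hairpin. The 10 genes were the receptors EGFR, ERBB2, ERBB3 and ERBB4 and the ligands AREG, EREG, HBEGF, TGFA, BTC and EGF. Their windows were the gene bodies of GENCODE v44 with 20 kb added on each side. A region is a run of adjacent accessible 100-bp bins, and the windows held 85 of the 79177 regions of DU-145 and 43 of the 46298 regions of BT-549. Of the 32671 regions formed by bins present in both tables, 37 lay in the windows.

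The ERBB receptors are tyrosine kinases of the cell surface that pair when a ligand of the EGF family binds. EGFR, ERBB3 and ERBB4 bind ligands, while ERBB2 has no known ligand of its own and serves as a partner of the others. The ligands are made as membrane proteins and are released by proteases, and the paired receptors signal through the RAS-MAPK and PI3K-AKT cascades. Epithelial cells and the carcinomas that arise from them commonly depend on this signaling.

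ATAC-seq, in which the Tn5 transposase cuts accessible DNA, was performed on 50000 cells per library. The DU-145 line comes from a human prostate carcinoma and stands for castration-resistant disease (CRPC), and the BT-549 line comes from a human triple-negative breast carcinoma (TNBC). A short hairpin RNA against MUC1 under a tetracycline-inducible promoter was present in both lines, which received vehicle (0.1% DMSO) or doxycycline (DOX) for 7 days, with 3 replicates in each of the 4 groups and 12 libraries in all. No cells carrying a control hairpin were analysed here, so the effects of the MUC1 hairpin and of DOX itself cannot be told apart, and nothing in these libraries measured the MUC1 transcript that the hairpin acts on.

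The deposited coverage of the accessible bins summed to 12370094 to 25232000 in the 6 DU-145 libraries and to 9142900 to 13606129 in the BT-549 vehicle libraries. In the BT-549 DOX libraries it summed to only 2502510 to 3267024, which makes their values less precise. A peak at the promoter in all vehicle libraries was found for 7 of 8 epithelial markers and 4 of 7 mesenchymal markers in DU-145, and for 2 of 8 and 6 of 7 in BT-549. Of 5 prostate luminal markers, only TMPRSS2 had such a peak in DU-145, where KLK3, HOXB13 and FOLH1 had no accessible promoter region. Of 4 breast luminal markers, GATA3 and FOXA1 had such a peak in both lines. ESR1 and PGR had no accessible promoter region in BT-549, while neither lacked one in DU-145, so this list does not set BT-549 apart. Of 5 leukocyte markers, only CD14 had such a peak, in both lines.

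Values are normalized coverage, namely the mean of a region per 100-bp bin after scaling the libraries of a line to the same sum. An adjusted p comes from the quasi-likelihood test of edgeR, adjusted by the Benjamini-Hochberg method over all regions of the table, and a region is called at an adjusted p under 0.05. With this scaling, the median log2 fold change of all regions was 0.24 in DU-145 and −0.10 in BT-549, so changes are also given relative to that median. With edgeR's TMM factors the 2 medians were 0.048 and 0.0016.

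In DU-145 cells, some regions of these genes were higher with DOX and others lower. Of the 85 regions, 34 were higher with DOX and 13 lower. Over all regions of DU-145, 37.1% were higher and 17.4% lower, so the share of higher regions in the windows was close to that of the table. Of the 19 regions within 1 kb of the start of a protein-coding gene, 7 were lower and the other 12 were not called, where 8.66% of all such regions were higher and 39% lower, so that the share of lower regions was close to that of all such regions. Of the 66 regions elsewhere, 34 were higher and 6 lower, where 42.5% of all such regions were higher and 13.3% lower. The median log2 fold change of these 66 regions was 0.54, against 0.39 for all regions away from coding starts. At an adjusted p under 1e-05 with a fold of 2 or more, the cutoff that defines a differentially accessible region (DAR) in DU-145, 7 regions opened and 1 closed, and 17.3% of all regions met that cutoff in either direction.

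The split between higher and lower regions depended on the scaling. With TMM factors, 26 of the 85 regions were higher and 25 lower, and with the trend on GC content removed from each library, an alternative, 19 were higher and 26 lower. Over all regions, 29363 were higher and 13805 lower with the library sums and 23745 and 20167 with TMM factors. In bulk cells, fewer cells with an open site and less opening per cell cannot be told apart.

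**Figure D1:**
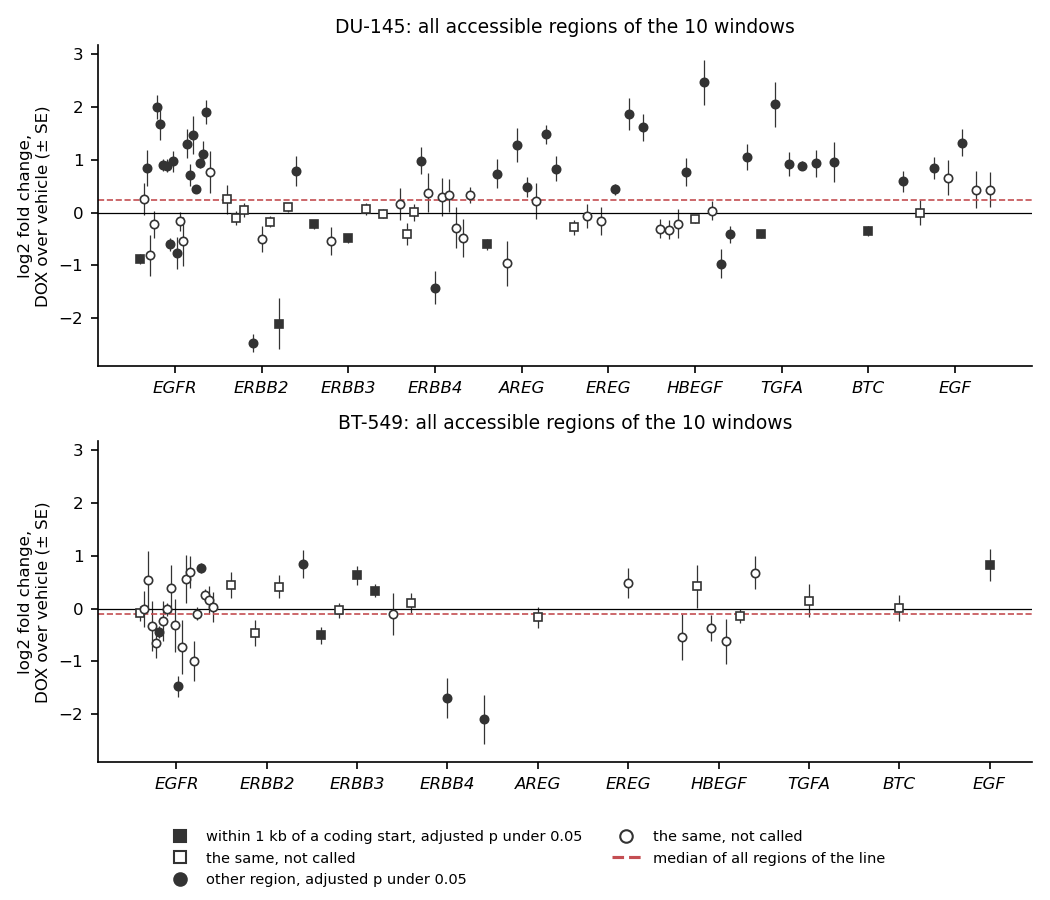
Log2 fold change of DOX over vehicle, with its standard error, of each accessible region in the 10 windows, in DU-145 (85 regions) and BT-549 (43 regions), ordered by gene and position. Squares mark regions within 1 kb of a coding start, filled symbols an adjusted p under 0.05, and the dashed line the median of all regions of the line; in DU-145 the filled squares lie below 0 and most filled circles above it.

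EGFR, the receptor of EGF, TGFα and amphiregulin, had the most regions of the 10 genes in both lines. It spans chr7:55019017-55211628 of GRCh38 on the plus strand, and 17 of its 22 DU-145 regions lay in intron 1. Of the 22 regions, 13 rose with DOX and 3 fell, while the promoter was among those that fell. With the GC trend removed 9 rose and 6 fell. Over all DU-145 regions, 37.1% were higher and 17.4% lower with the library sums. The promoter is shown first, followed by the site in intron 1 where the lines differed most. The promoter sequence is the 250 bases before the start in RefSeq (GRCh38.p14, chr7:55018767-55019016). The intron 1 sequence (GRCh38, chr7:55129801-55130100) is the 300-bp window at the highest bin of the region 110.9 kb past the start. Both are given 5′ to 3′ on the plus strand, in lower case because neither holds the searched motifs.
EGFR promoter: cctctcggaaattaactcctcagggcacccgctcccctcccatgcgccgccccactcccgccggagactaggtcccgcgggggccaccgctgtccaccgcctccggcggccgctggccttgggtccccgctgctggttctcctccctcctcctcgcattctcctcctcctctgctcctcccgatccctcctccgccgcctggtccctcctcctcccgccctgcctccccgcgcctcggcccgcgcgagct
EGFR intron 1: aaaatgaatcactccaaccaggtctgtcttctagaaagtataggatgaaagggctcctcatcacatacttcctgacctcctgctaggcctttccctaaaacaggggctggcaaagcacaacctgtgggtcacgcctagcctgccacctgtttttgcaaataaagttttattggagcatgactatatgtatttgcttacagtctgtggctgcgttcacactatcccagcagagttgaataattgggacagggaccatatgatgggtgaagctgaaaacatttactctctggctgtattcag

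The promoter region of EGFR had a normalized coverage of 28, 32.2 and 33.2 in the vehicle libraries of DU-145 and of 15.9, 18.2 and 16.5 in the DOX libraries. The groups did not overlap, and all 3 DOX libraries lay below the lowest vehicle library. The log2 fold change was −0.88 ± 0.10 (SE, n = 3 per group; adjusted p = 2.68e-09), and −1.12 relative to the median of all regions. It was the largest fall among the promoters of the 10 genes, and it was called under each of 14 alternatives, with log2 values from −1.12 to −0.83.

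The region 33.4 kb into intron 1 showed the opposite. Coverage there was 4, 4.09 and 3.46 with vehicle and 15.8, 16.1 and 15.1 with DOX. All 3 DOX libraries lay above all 3 vehicle libraries, with a log2 fold change of 2.0 ± 0.23 (adjusted p = 2.9e-09). The region at 44.8 kb rose from 6.41, 5 and 3.05 to 16.9, 14.5 and 15.3 (1.68 ± 0.29, adjusted p = 9.95e-06). The region at 195.3 kb, past the 3′ end of the gene, rose from 3.36, 2.2 and 3.44 to 8.56, 11.5 and 12.2 (1.91 ± 0.23, adjusted p = 1.09e-08). These 3 regions met the DAR cutoff, and none of them overlapped between vehicle and DOX libraries.

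Sites of EGFR with higher coverage in vehicle cells changed as well. The region at 114.4 kb, the most accessible of the window, rose from 77.8, 73 and 73.3 to 101, 104 and 102, a log2 fold change of 0.46 ± 0.07 and of 0.22 relative to the median. Intron 20 at 167.1 kb rose from 32.6, 36.8 and 29.7 to 66.9, 62.1 and 61.9, a log2 fold change of 0.94 ± 0.10 (adjusted p = 4.84e-10). In contrast, the region at 67.8 kb fell from 29.8, 30.6 and 36.4 to 21.7, 23.3 and 18.5, a log2 fold change of −0.60 ± 0.12 (adjusted p = 0.000103). Gains and losses therefore lay side by side within intron 1, with 10 of its 17 regions higher and 2 lower. With TMM factors 9 were higher and 3 lower, and with the GC trend removed 6 were higher and 5 lower.

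ERBB2, the receptor without a ligand, held the region with the largest loss. This region lies in intron 1 of the canonical transcript, 3.2 kb past its start, and also covers the start of an alternative ERBB2 transcript. The sequence below is the plus strand of chr17:39702901-39703193 (GRCh38), which ends at the base before the exon of that transcript at chr17:39703194-39703428. It is shown because its coverage fell most, and it holds neither searched motif.
ERBB2 intron 1: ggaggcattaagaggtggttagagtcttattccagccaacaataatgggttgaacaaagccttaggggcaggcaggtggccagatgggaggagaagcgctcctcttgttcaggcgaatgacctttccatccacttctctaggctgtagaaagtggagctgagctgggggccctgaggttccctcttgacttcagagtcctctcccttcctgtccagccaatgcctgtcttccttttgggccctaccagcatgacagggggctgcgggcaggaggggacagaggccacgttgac

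Coverage of this ERBB2 region was 31.4, 40.5 and 42.6 in the vehicle libraries and 6.62, 8.68 and 5.16 in the DOX libraries. All 3 DOX libraries lay far below the vehicle libraries. The fall was 5.53-fold, a log2 fold change of −2.47 ± 0.17 (adjusted p = 2.97e-14), which kept its call under each of 14 alternatives. The canonical ERBB2 promoter was 21.8, 20.3 and 24.8 with vehicle and 21.8, 24.8 and 22.3 with DOX. Its groups overlapped, with a log2 fold change of 0.05 ± 0.13 (adjusted p = 0.748).

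A region 36.8 kb past the ERBB2 start, at the start of its neighbor GRB7, an adaptor that binds ERBB2, also fell. Coverage went from 7.5, 6.21 and 7.13 to 1.19, 2.23 and 1.26, so that the groups did not overlap (log2 fold change −2.10 ± 0.49, adjusted p = 0.000459). The coverage was low, and the log2 value ranged from −2.52 to −0.77 over 14 alternatives, each of which called it. The larger GRB7 region next to it, at 39.2 kb, was 29.5, 36.8 and 33.5 with vehicle and 32.1, 40.3 and 34.5 with DOX, with overlapping groups (0.10 ± 0.09, adjusted p = 0.364). Within it, the part at 40.4 kb present in both tables went from 5.46, 5.74 and 6.84 to 19.4, 17.7 and 18.2. Those values are scaled over the shared bins, and the groups did not overlap. This part was not tested as a region of its own in DU-145.

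ERBB3, a receptor for neuregulins whose own kinase activity is weak, had 5 regions in DU-145. Its promoter was 49.9, 57.4 and 50.7 with vehicle and 41.5, 50.7 and 43.5 with DOX, with overlapping groups. The log2 fold change was −0.22 ± 0.09 (adjusted p = 0.0326). The call was lost with the GC trend removed (−0.19) and without vehicle replicate 2 (−0.15), DOX replicate 1 (−0.16) or DOX replicate 3 (−0.19). The other ERBB3 region that fell lies at the start of its neighbor PA2G4, which went from 94.1, 93.2 and 84.3 to 61.5, 65.4 and 66.8 (−0.49 ± 0.08, adjusted p = 2.47e-06).

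ERBB4, another neuregulin receptor and the longest of the 10 genes at 1163.1 kb, had 11 regions, of which 1 rose and 1 fell. The region in intron 1 at 402.9 kb fell from 14.1, 9.08 and 10.9 to 4.16, 4.47 and 4.01, with no overlap (log2 fold change −1.42 ± 0.32, adjusted p = 0.000282). The region at 86.8 kb rose from 5.11, 6.67 and 8.18 to 14.1, 14.4 and 11.2 (0.99 ± 0.26, adjusted p = 0.00163), a call that was lost with the GC trend removed, where 0 ERBB4 regions were higher and 4 lower. The promoter was 14.8, 14.3 and 17.1 with vehicle and 17.9, 12.1 and 16.4 with DOX, with overlapping groups (0.01 ± 0.16, adjusted p = 0.974). Across the 4 receptor genes, 15 of 47 regions were higher and 8 lower, and with TMM factors 13 were higher and 15 lower. Over all DU-145 regions, 37.1% were higher and 17.4% lower with the library sums.

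The ligand genes had 38 regions in DU-145, of which 19 were higher with DOX and 5 lower, against 13 and 10 with TMM factors and 9 and 10 with the GC trend removed. With the library sums, 37.1% of all DU-145 regions were higher and 17.4% lower, and 42.5% and 13.3% of those away from coding starts. Whether the ligand genes differ from other regions was not tested. Of the 34 regions that rose in the 10 windows, 18 hold the AP-1 sequence TGACTCA, read on either strand, where it appears as TGAGTCA. Shown 5′ to 3′ on the plus strand with the motif in capitals are 3 such windows, at EREG and AREG, a window with the same motif in HBEGF intron 2 and the AREG promoter, which holds the cyclic AMP response element TGACGTCA. The HBEGF window is that of a region present in both lines, and in DU-145 it lies inside the promoter region of HBEGF, which as a whole was not called. The windows are 300 bp at the highest bin of the region, from GRCh38 chr5:140344801-140345100 (HBEGF intron 2), chr4:74374601-74374900 (EREG intron 1), chr4:74394801-74395100 (past the 3′ end of EREG) and chr4:74456101-74456400 (past the 3′ end of AREG). The AREG promoter is the 250 bases before the start in RefSeq (GRCh38.p14, chr4:74444886-74445135).
HBEGF intron 2: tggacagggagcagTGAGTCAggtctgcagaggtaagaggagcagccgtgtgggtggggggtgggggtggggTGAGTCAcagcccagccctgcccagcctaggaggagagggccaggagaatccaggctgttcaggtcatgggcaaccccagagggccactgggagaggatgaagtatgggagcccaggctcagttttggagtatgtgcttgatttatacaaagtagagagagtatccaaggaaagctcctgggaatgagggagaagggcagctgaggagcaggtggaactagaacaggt
EREG intron 1: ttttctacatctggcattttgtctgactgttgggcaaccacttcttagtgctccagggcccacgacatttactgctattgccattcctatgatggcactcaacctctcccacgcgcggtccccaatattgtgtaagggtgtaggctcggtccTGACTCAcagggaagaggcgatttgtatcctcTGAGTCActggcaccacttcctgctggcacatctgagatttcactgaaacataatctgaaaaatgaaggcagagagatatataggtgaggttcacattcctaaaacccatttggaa
EREG downstream: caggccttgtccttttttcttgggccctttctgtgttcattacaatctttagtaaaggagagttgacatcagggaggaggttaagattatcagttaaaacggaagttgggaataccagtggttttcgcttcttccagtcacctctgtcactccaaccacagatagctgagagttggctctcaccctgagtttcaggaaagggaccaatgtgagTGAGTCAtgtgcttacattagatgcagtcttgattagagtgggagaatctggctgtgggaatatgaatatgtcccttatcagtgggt
AREG downstream: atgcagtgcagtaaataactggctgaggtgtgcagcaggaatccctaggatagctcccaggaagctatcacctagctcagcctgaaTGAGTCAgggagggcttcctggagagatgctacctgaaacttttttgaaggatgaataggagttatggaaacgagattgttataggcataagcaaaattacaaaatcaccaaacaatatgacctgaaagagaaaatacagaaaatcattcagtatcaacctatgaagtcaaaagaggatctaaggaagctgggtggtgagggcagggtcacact
AREG promoter: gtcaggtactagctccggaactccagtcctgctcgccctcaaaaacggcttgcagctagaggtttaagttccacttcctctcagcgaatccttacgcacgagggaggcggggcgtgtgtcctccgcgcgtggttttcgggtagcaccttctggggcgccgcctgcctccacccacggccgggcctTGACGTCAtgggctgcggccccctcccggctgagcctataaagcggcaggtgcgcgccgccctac

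AREG encodes amphiregulin, a ligand of EGFR, and is carried by chr4:74445136-74455005 on the plus strand. Its promoter was 53.3, 47.8 and 49.3 with vehicle and 32, 36.1 and 30.7 with DOX. All DOX libraries lay below all vehicle libraries, with a log2 fold change of −0.60 ± 0.11 (adjusted p = 2.17e-05). Past its 3′ end, the region at 11.7 kb printed above rose from 2.95, 4.59 and 3.26 to 9.89, 11.7 and 9.31, a DAR without overlap (1.48 ± 0.19, adjusted p = 3.19e-08). Intron 3 at 4.8 kb went from 1.78, 4 and 6.61 to 8.98, 8.25 and 12.8 (1.29 ± 0.32, adjusted p = 0.000769), but its call was lost with the GC trend removed (adjusted p = 0.0753). Of the 8 AREG regions, 5 rose and the promoter was the only one that fell, and with the GC trend removed 1 rose and 2 fell.

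EREG encodes epiregulin, a ligand of EGFR and ERBB4, and lies upstream of AREG on the same strand. Past its 3′ end, the region at 29.7 kb printed above rose from 3.98, 3.73 and 3.61 to 9.89, 11.4 and 13.8 (log2 fold change 1.62 ± 0.26, adjusted p = 1.99e-06). The region at 27.2 kb rose from 2.85, 1.38 and 2.82 to 8.41, 7.41 and 8.92 (1.87 ± 0.31, adjusted p = 2.98e-06). Both were DARs and were low in every vehicle library. The intron 1 region at 10.1 kb, whose window holds 2 AP-1 sequences, went from 25.7, 39.3 and 31.6 to 42.7, 48.1 and 41.3, without overlap. Its log2 fold change was 0.44 ± 0.11 (adjusted p = 0.00108) and 0.20 relative to the median, and it was not called with TMM factors (adjusted p = 0.0662). The EREG promoter was 17.6, 22.2 and 14.9 with vehicle and 13.5, 17.2 and 14.7 with DOX. Its groups overlapped (−0.28 ± 0.15, adjusted p = 0.114), while TMM factors called it lower (adjusted p = 0.00836).

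HBEGF encodes heparin-binding EGF, and its gene lies on the minus strand of chromosome 5 at 140332843-140346603. The region in intron 3 at 8.1 kb rose from 0.533, 1.66 and 3.11 to 12.3, 8.49 and 7.95, with every DOX library above every vehicle library. The log2 fold change was 2.47 ± 0.42 (adjusted p = 6.93e-06), the largest gain in the 10 windows. The region was called under each of 14 alternatives, with log2 values between 1.16 and 2.93, and its coverage with vehicle was low. The HBEGF promoter was 50.9, 61.2 and 57.4 with vehicle and 47.5, 58.1 and 50.5 with DOX. Its groups overlapped (−0.12 ± 0.08, adjusted p = 0.234), while TMM factors called it lower (adjusted p = 0.00311). Within it, regions formed by bins present in both tables moved apart in DU-145, scaled over those bins. Intron 2 at 1.5 kb went from 37.4, 53.2 and 54 to 71.9, 72.1 and 63.4. The part at 0.1 kb went from 45.1, 50.6 and 45.6 to 30.5, 42.2 and 37.3. Neither part overlapped between vehicle and DOX, and neither was tested as a region of its own in DU-145. Past the 3′ end, the region at 24.6 kb fell from 9.63, 10.8 and 12.8 to 4.81, 5.98 and 5.81 (−0.97 ± 0.27, adjusted p = 0.00303).

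TGFA encodes TGFα, a ligand of EGFR, and had the most accessible of the 10 promoters in DU-145. The promoter fell from 84.7, 80.5 and 72.7 to 59.9, 56.5 and 64.3, with no overlap (log2 fold change −0.40 ± 0.08, adjusted p = 5.38e-05). The other 5 TGFA regions, 4 in intron 1 and 1 upstream, all rose. The region at 7.2 kb rose from 2.23, 1.71 and 3.42 to 7.41, 10.9 and 12 (2.06 ± 0.43, adjusted p = 0.0001). The region at 29.2 kb rose from 30.6, 35.9 and 34.1 to 58.6, 65.8 and 62.2 (0.89 ± 0.09, adjusted p = 1.77e-10). The region 16.4 kb upstream rose from 6.13, 5.81 and 5.87 to 10.9, 12.5 and 13.2 (1.05 ± 0.25, adjusted p = 0.000418). With the GC trend removed, the call upstream was lost (adjusted p = 0.128) and 3 TGFA regions were higher.

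BTC encodes betacellulin, a ligand of EGFR and ERBB4. Its promoter fell from 40.2, 44 and 37.1 to 31.2, 33.4 and 31.3, with no overlap (log2 fold change −0.34 ± 0.10, adjusted p = 0.00374), a call that was lost without vehicle replicate 2 (−0.27). The other 2 BTC regions were called higher with the library sums, and neither was called with TMM factors (adjusted p = 0.0888 and 0.0857). EGF, the founding ligand of the family, had the least accessible of the 10 promoters, at 7.15, 9.76 and 9.31 with vehicle and 9.35, 10.3 and 6.75 with DOX. These groups overlapped (0.00 ± 0.24, adjusted p = 0.994). Within the gene, the region in intron 5 at 34.7 kb rose from 8.74, 6.17 and 6.8 to 16.5, 17.9 and 19.4, without overlap (1.33 ± 0.26, adjusted p = 5.05e-05).

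**Figure D2:**
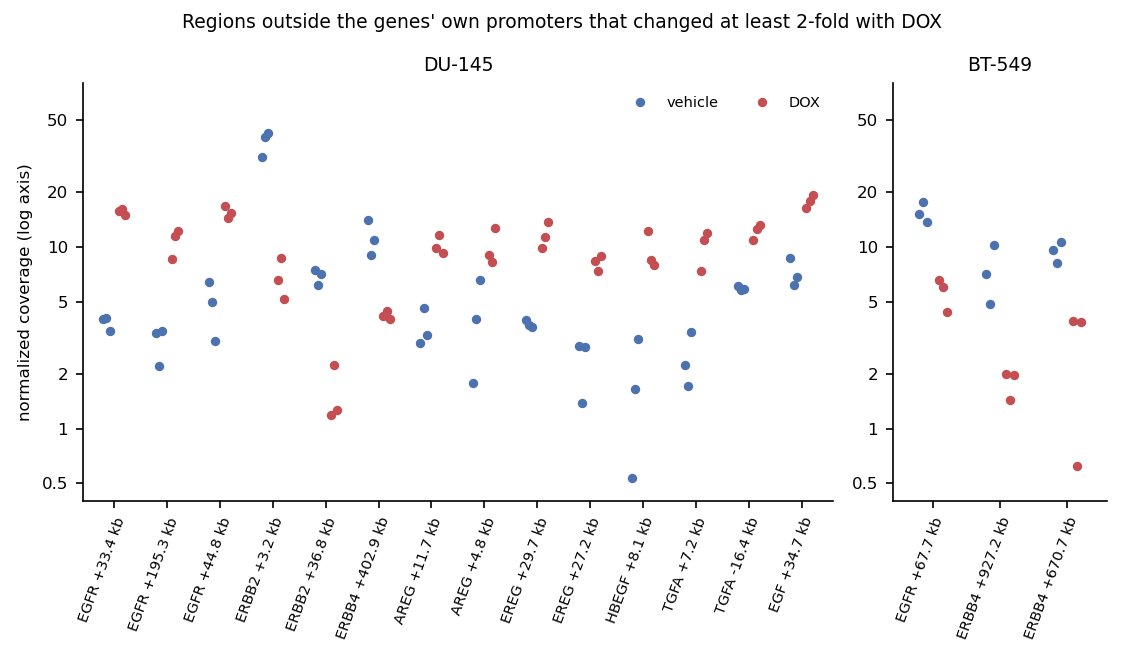
Normalized coverage (log axis) in each vehicle and DOX library of the regions outside the genes' own promoters that changed at least 2-fold at an adjusted p under 0.05 and did not overlap between the groups, up to 3 per gene and line, labelled by gene and distance from its start. The ERBB2 region at 3.2 kb fell from above 30 to below 10 in DU-145, and the HBEGF region at 8.1 kb rose from values of 0.533 to 3.11.

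Among the promoters of the 10 genes, those of EGFR, AREG, TGFA, BTC and ERBB3 were lower with DOX in DU-145. A higher promoter was called for 0 of 10 by edgeR's quasi-likelihood test, and likewise for 0 at an unadjusted p under 0.05, 0 by DESeq2 and 0 by limma. With TMM factors 7 of the 10 were lower. Of all DU-145 regions near coding starts, which include further regions of the same genes, 8.66% were higher and 39% lower with the library sums. In vehicle cells the order of coverage per bin was TGFA, HBEGF, ERBB3, AREG, BTC, EGFR, ERBB2, EREG, ERBB4 and EGF, with means from 79.3 ± 6.09 to 8.74 ± 1.4 (SD, n = 3). The libraries of HBEGF overlapped with those of ERBB3, those of ERBB3 with AREG, those of ERBB2 with EREG and those of EREG with ERBB4, while the other neighbors in that order did not overlap. In BT-549 vehicle cells the order was HBEGF, ERBB3, EGFR, AREG, BTC, ERBB2, ERBB4, TGFA and EGF, from 25.6 ± 1.97 to 4.96 ± 1.3. There, EGFR overlapped with AREG, BTC with ERBB2, ERBB2 with ERBB4 and ERBB4 with TGFA. EREG had no promoter region in the BT-549 table, and a peak lay there in 1 of the 3 vehicle libraries.

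**Figure D3:**
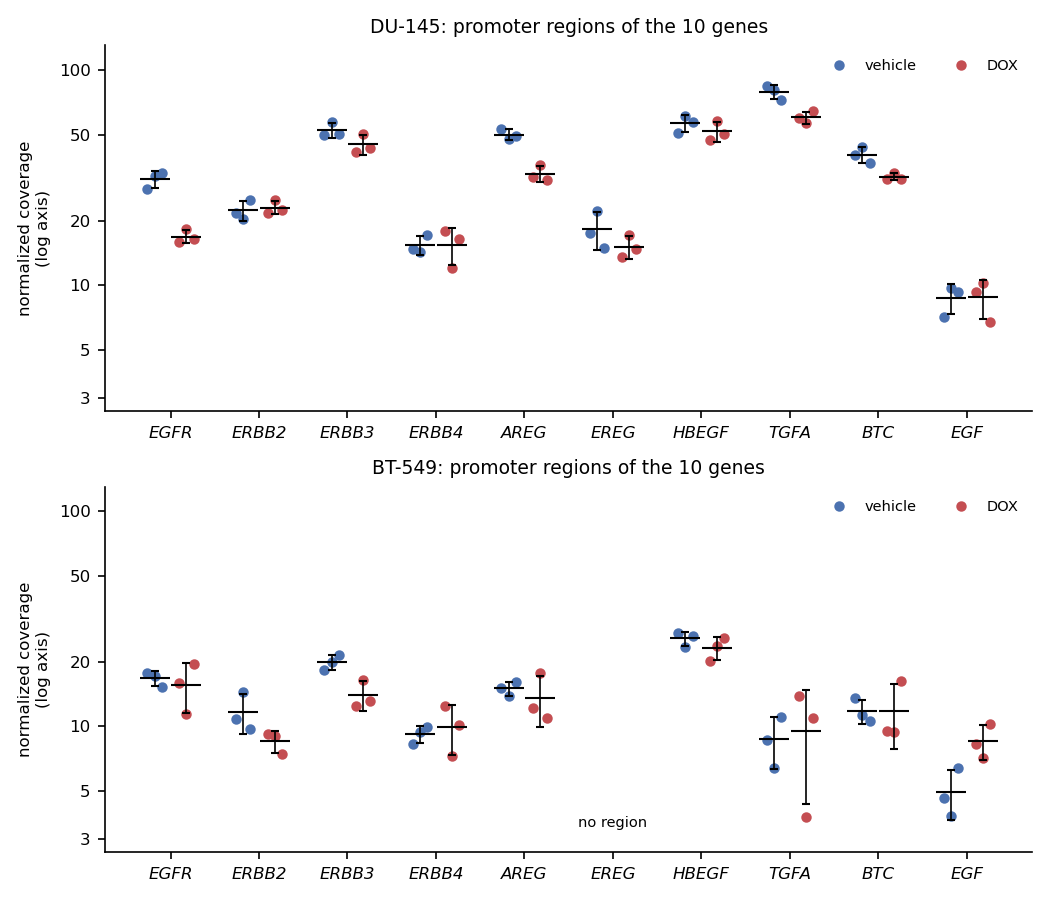
Normalized coverage (log axis) of the promoter region of each gene in every vehicle and DOX library of DU-145 and BT-549, with mean and SD (n = 3). The DOX libraries of EGFR (15.9 to 18.2) and AREG (30.7 to 36.1) lie below all their vehicle libraries in DU-145, while in BT-549 most groups overlap and EREG has no promoter region.

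The BT-549 table was smaller, with 43 regions in the windows and 46298 in all, against 85 and 79177 in DU-145. Fewer regions of the windows were called in BT-549. Of the 43 regions, 5 were higher and 5 lower with DOX, where 12.2% of all regions were higher and 18% lower. With TMM factors the counts were 7 and 4, and over all regions 5642 and 8329 became 7340 and 6845. Of the 15 regions near coding starts, 3 were higher and 1 lower, with 18% and 6.84% of all such regions. Of the 28 regions elsewhere, 2 were higher and 4 lower, with 10.1% and 22% of all such regions. Only 2 regions were higher without vehicle replicate 1, vehicle replicate 3 or DOX replicate 2. The windows of the receptor genes held 9 of the 10 calls and 32 of the 43 regions. Of these regions 28.1% were called, close to the share of all regions called in either direction. Their higher calls included starts of neighbors of ERBB3, at 36 kb (RPL41, log2 fold change 0.63) and 38.1 kb (RPL41 and ZC3H10, 0.34). A region 40.4 kb past the ERBB2 start, beyond the 3′ end of that gene, was among them as well (0.85). The DOX libraries of BT-549 had the lowest summed coverage of the 12 libraries, so a region that was not called here is not shown to be unaffected. Such a sum cannot tell sequencing depth from the share of fragments in accessible bins.

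At EGFR, 3 of 20 regions changed in BT-549. The region in intron 1 at 67.7 kb fell from 15.2, 17.7 and 13.7 to 6.62, 6.03 and 4.36, with no overlap (log2 fold change −1.47 ± 0.20, adjusted p = 1.76e-06). This site overlaps the region that fell in DU-145. The region at 114.5 kb rose from 47.4, 48.3 and 43.6 to 73.7, 92.9 and 72.4 (0.78 ± 0.10, adjusted p = 6.23e-07). The region at 46.6 kb fell from 31.4, 34.5 and 31.3 to 24.3, 21.6 and 25.7 (−0.44 ± 0.12, adjusted p = 0.00477). The EGFR promoter was 17.7, 17.2 and 15.3 with vehicle and 15.9, 11.4 and 19.5 with DOX, so that the DOX libraries lay on both sides of the vehicle libraries (−0.09 ± 0.15, adjusted p = 0.69).

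ERBB4 had 3 regions in BT-549, of which 2 fell and met the DAR cutoff of that line, an adjusted p under 0.01 with a fold of 2 or more. Intron 19 at 927.2 kb went from 7.08, 4.87 and 10.3 to 1.99, 1.44 and 1.97 (log2 fold change −2.10 ± 0.47, adjusted p = 0.00109). Intron 3 at 670.7 kb went from 9.64, 8.15 and 10.6 to 3.93, 0.623 and 3.85 (−1.69 ± 0.38, adjusted p = 0.00118). Both were lower in every DOX library than in any vehicle library, and both were called under each of 14 alternatives. With the EGFR region at 67.7 kb, these were the 3 DARs of the windows in BT-549, where 12.4% of all regions met the cutoff in either direction.

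The ERBB3 promoter was 18.2, 20 and 21.5 with vehicle and 12.4, 16.5 and 13.1 with DOX in BT-549 (log2 fold change −0.51 ± 0.16, adjusted p = 0.0149). The call was lost with TMM factors (−0.40) and DESeq2 (−0.40), and without vehicle replicate 3 (−0.45), DOX replicate 1 (−0.43) or DOX replicate 3 (−0.46). The EGF promoter was 4.65, 3.84 and 6.38 with vehicle and 8.25, 7.14 and 10.3 with DOX (0.82 ± 0.30, adjusted p = 0.0404). Its call was lost with limma (0.71), and without vehicle replicate 1 (0.78), vehicle replicate 2 (0.67), DOX replicate 1 (0.86) or DOX replicate 3 (0.66). The other 10 ligand regions of BT-549 were not called by edgeR's quasi-likelihood test, while the fit with the GC trend removed also called 1 region of EREG higher.

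The lines were next compared in vehicle cells over the 37 regions present in both tables, with each library scaled to the same sum over the shared bins. Of these regions, 11 were higher and 17 lower in DU-145 than in BT-549, where 26.2% of all shared regions were higher and 46.5% lower. The median log2 difference of all regions was −0.33, and with TMM factors 14 were higher and 13 lower. Over all shared regions, 8547 were higher and 15194 lower with the library sums and 11419 and 11467 with TMM factors. Copy number was not measured here, and accessibility per copy and the number of copies cannot be told apart.

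Most shared regions of the receptor EGFR, but not its promoter, were more accessible in BT-549. Of its 15 shared regions, 12 were lower in DU-145 vehicle cells and the other 3 were not called. The 3 were the promoter and the regions at 1.9 and 8.2 kb. With TMM factors 10 were lower, and the calls at 67.8 and 90.5 kb were lost (adjusted p = 0.253 and 0.231). Regions held by only 1 of the tables were not compared. The site at 110.9 kb, printed above, had a coverage of 3.33, 5.5 and 5.11 in DU-145 and of 75.9, 81 and 77.8 in BT-549. These groups were far apart, with a 16.4-fold difference and a log2 value of −4.04 ± 0.18 (adjusted p = 6.8e-23). Its neighbors at 110.0 and 112.0 kb were lower in DU-145 by 8.85-fold and 8.41-fold. The promoter was 25.4, 27.6 and 28.7 in DU-145 and 31.6, 31.5 and 28.2 in BT-549, with a log2 difference of −0.16 ± 0.12 (adjusted p = 0.221), and was called lower only with the GC trend removed (−0.29). Relative to the median of all regions, the promoter difference was 0.17 and that at 110.9 kb −3.71.

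Of the 10 shared regions of ligand genes, 6 were higher in DU-145 vehicle cells and 2 lower. The 2 lie upstream of HBEGF, at 5.2 kb (log2 difference −0.88 ± 0.29, adjusted p = 0.00595) and at 11.2 kb (−0.87 ± 0.19, adjusted p = 0.000107), and with TMM factors the call at 5.2 kb was lost (adjusted p = 0.0578). The TGFA promoter had a coverage of 142, 131 and 119 in DU-145 and of 14.3, 10.5 and 18.5 in BT-549, a 9.17-fold difference without overlap (log2 3.20 ± 0.16, adjusted p = 3.57e-21). HBEGF intron 2, whose window with 2 AP-1 sequences is printed above, was 37.4, 53.2 and 54 in DU-145 and 9.82, 6.86 and 8.95 in BT-549 (2.50 ± 0.17, adjusted p = 1.83e-16). EREG intron 1, also printed above, was 29.1, 41.5 and 37 in DU-145 and 9.78, 12.2 and 12.9 in BT-549 (1.64 ± 0.18, adjusted p = 5.21e-11). The BTC promoter was 45.7, 50.2 and 41.8 against 22.2, 18.6 and 17.6 (1.23 ± 0.15, adjusted p = 1.3e-09). In all 4 of these, every DU-145 library lay above every BT-549 library. The AREG promoter differed less, at 36.3, 32.9 and 34 against 24.9, 22.7 and 26.8 (0.47 ± 0.14, adjusted p = 0.00262).

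Among the other receptor genes, the ERBB3 promoter was 48.1, 55.5 and 48.8 in DU-145 and 30.1, 32.9 and 35.6 in BT-549 (log2 difference 0.63 ± 0.11, adjusted p = 2.03e-06). The start of MIEN1, a neighbor of ERBB2, was 42, 41.6 and 51 against 19.4, 19.6 and 15.8 (1.28 ± 0.14, adjusted p = 9.13e-11). The ERBB2 promoter itself was 21.4, 18.8 and 24.2 against 17.8, 23.7 and 16.1, with overlapping groups (0.15 ± 0.17, adjusted p = 0.429). With TMM factors it was called higher in DU-145 (adjusted p = 0.0215). The ERBB4 site in intron 3 at 670.5 kb was lower in DU-145 (−1.56 ± 0.30, adjusted p = 1.4e-05), but with the GC trend removed the log2 difference was −0.28 and not called (adjusted p = 0.403).

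The DOX effect differed between the lines at 15 of the 37 shared regions, where 38.6% of all shared regions showed such a difference. In 14 the change in DU-145 minus that in BT-549 was positive and in 1 it was negative. With TMM factors the counts were 11 and 7, and over all regions 8915 positive and 3696 negative became 6899 and 6284. All 15 lay in the windows of receptor genes. Those at 193.7 and 195.2 kb of EGFR and at 40.4 kb of ERBB2 lay past the 3′ end of the gene. Of the 10 shared regions of ligand genes, edgeR's quasi-likelihood test called 0, as did an unadjusted p under 0.05 and TMM factors, while DESeq2 called 3 and the fit with the GC trend removed called 2. Whether the receptor genes differ from the ligand genes in this was not tested.

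The EGFR window held 11 of the 15. The site at 46.5 kb was 17.4, 19.1 and 21 with vehicle and 38.2, 46.5 and 31.8 with DOX in DU-145. In BT-549 it was 66.3, 73.4 and 66.4 with vehicle and 47.3, 43.4 and 53.2 with DOX. It thus moved up in all DU-145 DOX libraries and down in all BT-549 DOX libraries, and the difference of the log2 fold changes was 1.54 ± 0.18 (adjusted p = 2.74e-09). At 44.8 kb the difference was 2.38 ± 0.42 (adjusted p = 1.32e-05), and at 195.2 kb 2.24 ± 0.37 (adjusted p = 4.67e-06). At 112.0 kb it was 1.47 ± 0.44 (adjusted p = 0.00692). These 4 were called under each of 19 alternatives.

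The EGFR promoter was the negative one. It was 25.4, 27.6 and 28.7 with vehicle and 15.7, 17 and 15.2 with DOX in DU-145, and 31.6, 31.5 and 28.2 with vehicle and 28.4, 20.2 and 34.5 with DOX in BT-549. The difference was −0.65 ± 0.18 (adjusted p = 0.00444), a call that was lost without BT-549 DOX replicate 3 (−0.44). The remaining 6 EGFR calls, at 54.8, 67.8, 110.0, 110.9, 167.1 and 193.7 kb, and that of ERBB4 at 670.5 kb were lost with the GC trend removed, where for example the difference at 54.8 kb went from 1.09 to 0.08. The calls at the ERBB2 promoter, at 40.4 kb past it and at the ERBB3 promoter had adjusted p-values of 0.0431, 0.0279 and 0.0456 and were lost with TMM factors, with DESeq2 and without any 1 of several libraries. These differences rest on the BT-549 DOX libraries, whose summed coverage was low, and the part of depth in them was not tested. The removal of the GC trend was added to this comparison and to that of the vehicle cells after the data were seen.

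**Figure D4:**
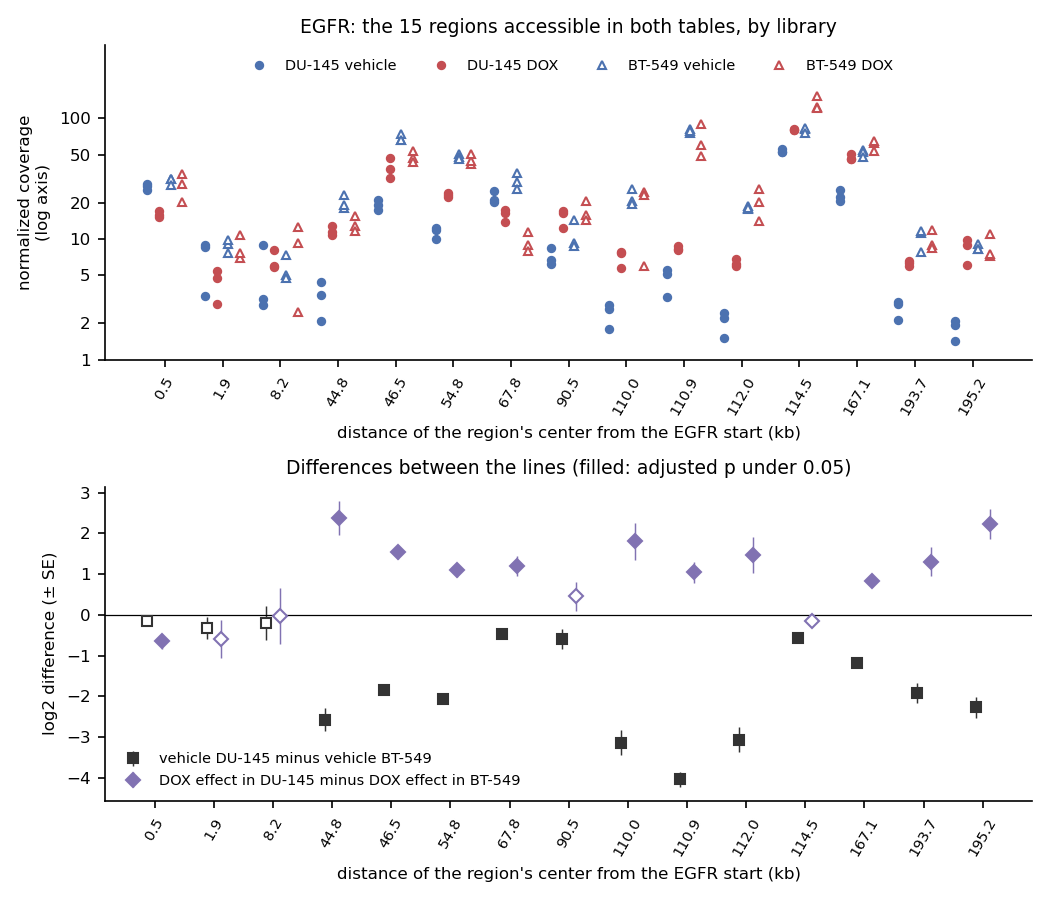
Above, normalized coverage (log axis) of the 15 EGFR regions present in both tables in each of the 12 libraries, by the distance of the region's center from the EGFR start in kb. Below, the log2 difference between the lines in vehicle cells and the difference between their DOX effects, with standard errors; filled symbols have an adjusted p under 0.05, and the lowest vehicle difference is −4.04 at 110.9 kb.

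Summed over the whole window, EGFR coverage in DU-145 was 242, 251 and 257 CPM (scaled by the library sum) with vehicle and 326, 340 and 321 with DOX. No DOX library overlapped with a vehicle library, which gives an exact permutation p of 0.1, the smallest that 3 against 3 allow. The EGF window went from 11.7 ± 0.808 to 18.2 ± 1.12 (SD, n = 3). The sums of the AREG, TGFA and ERBB4 windows had log2 ratios of 0.11, 0.16 and 0.10, and of −0.08, −0.03 and −0.09 with TMM factors. They thus have no direction that holds under both scalings.

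The authors' peak lists held more peaks in these windows with DOX in DU-145 and fewer in BT-549. The 10 windows held 75, 86 and 67 peaks in the DU-145 vehicle libraries and 92, 101 and 94 in the DOX libraries, while all peaks of a library numbered 63271 to 83605 and 87702 to 95487. In BT-549 they held 90, 89 and 69 with vehicle and 31, 34 and 27 with DOX, while all peaks numbered 65204 to 93929 and 30450 to 39837. Within each line the counts did not overlap (exact permutation p = 0.1 each), and the part of depth in this was not tested. The fold enrichment of the EGFR promoter peak over its background was 46.8, 60.2 and 41.1 with vehicle and 27.5, 38.8 and 29.8 with DOX in DU-145. In BT-549 it went from 28.8, 34.8 and 23.7 to 8.39, 10.6 and 16, although the coverage of that promoter was not called there. The HBEGF promoter, also not called in BT-549, went from 41.2, 35.2 and 30.7 to 8.95, 11.9 and 16.6. Fold enrichment was also lower with DOX at the BT-549 promoter peaks of ERBB2, ERBB3, ERBB4, AREG, TGFA and BTC. The EGF promoter, whose coverage was called higher there, went from 5.2, 4.19 and 6.14 to 3.36 and 4.66, with no peak in DOX replicate 2. Fold enrichment thus moved across these BT-549 promoters, also where coverage was not called or was called higher.

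The AP-1 sequence TGACTCA, the binding sequence of JUN and FOS dimers, lay in the 300-bp window at the highest bin of 22 of the 85 DU-145 regions, against 30.0% of all regions. It was present in 18 of the 34 regions higher with DOX and in 1 of the 13 lower ones. Among all regions of DU-145, 44.7% of the higher and 17.5% of the lower ones held it. In BT-549 it was present in 6 of 43 regions, against 17.2% of all. There, 0 of the 5 regions higher with DOX and 2 of the 5 lower ones held it. Among all regions of BT-549, 17.1% of the higher and 26.9% of the lower ones held it. The regions of EGFR at 33.4, 44.8 and 195.3 kb and of HBEGF at 8.1 kb rose without this sequence in their window. RefSeq promoters were matched for 9 of the 10 genes. The AREG promoter held TGACGTCA, as did 1.85% of the 35116 promoters of RefSeq. A match is a run of letters and does not show that a factor is bound.

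The wider pathway was read at the promoters of 52 genes, namely other ligands, the proteases that release ligands, adaptors, the RAS-MAPK and PI3K-AKT cascades and feedback inhibitors. In DU-145, 50 had a promoter region, of which 3 were higher and 27 lower with DOX (median log2 fold change −0.22). Of all regions near coding starts, 8.66% were higher and 39% lower. That set also holds regions of lower coverage beside the 1 taken per gene, so the shares are not directly comparable. With TMM factors 39 were lower, and with the GC trend removed 1 was higher and 27 lower. In BT-549, 49 had a promoter region, of which 18 were higher and 3 lower (median 0.20). With the same limit, 18% of all regions near coding starts were higher and 6.84% lower. There, TMM factors gave 24 and 1, and the fit without the GC trend 13 and 3. By class, DU-145 had 7 of 10 adaptors, 5 of 9 PI3K-AKT genes, 8 of 14 feedback genes and 3 of 10 RAS-MAPK genes lower. BT-549 had 5 of 10 RAS-MAPK genes, 4 of 9 PI3K-AKT genes and 6 of 14 feedback genes higher. Whether the pathway or a class differs from other promoters was not tested.

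ADAM17, the protease that sheds most ligands of the family, had a promoter coverage of 140, 124 and 122 with vehicle and 66.5, 80 and 83.4 with DOX in DU-145 (log2 fold change −0.75 ± 0.08, adjusted p = 1.26e-09). In BT-549, where it was chosen after its values were seen, it went from 24.9, 25.1 and 24.4 to 49.7, 33 and 35.5 (0.66 ± 0.13, adjusted p = 0.000201). ERRFI1, an inhibitor that binds the EGFR kinase, fell from 25.5, 31.3 and 28.8 to 14.3, 19.5 and 17.4 in DU-145 (−0.74 ± 0.09, adjusted p = 2.5e-08). In BT-549 it rose from 19.2, 19.7 and 15.2 to 34, 24.1 and 30.8 (0.71 ± 0.13, adjusted p = 0.000166). In both lines the groups did not overlap at ERRFI1, and the difference between the lines was not tested. SPRY2, a feedback inhibitor of RAS signaling, fell by 0.69 on the log2 scale in DU-145 (adjusted p = 3.3e-09), and NRG2, a neuregulin ligand, fell by 0.66 (adjusted p = 2.88e-08).

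SPRY4, a relative of SPRY2, rose in BT-549 from 20.6, 20.9 and 20.3 to 36.4, 39.6 and 36.5 (log2 fold change 0.86 ± 0.08, adjusted p = 8.05e-09). DUSP4, a phosphatase of MAP kinases, rose by 0.52 (adjusted p = 0.000151). MAPK3, a kinase of the RAS-MAPK cascade, went from 6.22, 9.06 and 7.82 to 1.14, 5.52 and 2.34 in BT-549 (−1.38 ± 0.45, adjusted p = 0.0212), a call lost with the GC trend removed. The lower calls of GAB1 (−0.39) and NRG2 (−0.44) in BT-549 were lost with TMM factors. In DU-145, SPRY4 (0.31), NRG4 (0.70) and GRB2 (0.25) were called higher, and none of these calls held with TMM factors. The promoter of MUC1 itself had a log2 fold change of −0.17 ± 0.08 in DU-145 (adjusted p = 0.0534), which TMM factors called lower (−0.36, adjusted p = 0.000206), and of 0.02 ± 0.10 in BT-549 (adjusted p = 0.907).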

How the data were processed

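Accessibility was measured by ATAC-seq in 12 libraries. Samples were grouped by the labels, which call the vehicle cells untreated in one field. The authors used bwa-mem and GRCh38 for alignment and Picard against duplicates. They called peaks per replicate in paired-end mode (MACS2 2.2.7.1, q-value 0.05), merged them, kept what at least 3 replicates shared and cut it into 100-bp bins. Each deposited value is an estimated count, the average fragment coverage over a bin, with no normalization for depth by the authors. In the peak lists the authors give a fold enrichment, a −log10 p-value and a −log10 q-value per peak. The labels also name MACS3, with no role.

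Runs of adjacent bins were joined into regions, and their summed values were rounded, since the bin values are not whole. Regions with a total of at least 10 were tested with edgeR 4.0.16 (R 4.3.3), with the column sum as library size. The standard error is the log2 fold change divided by the square root of the F value. The joint comparison used all 12 libraries, with the group as the only term. Single sums and peak counts were compared by exact two-sided permutation tests. The replicates were biologically independent per the study's methods. A promoter region lies within 1 kb of the start of the canonical transcript. Genes and regions were named by a rule: the 10 promoters, up to 3 further regions per gene and line (1 for the lines in vehicle cells) with a fold of at least 2 and no overlap, by smallest adjusted p, and up to 4 pathway genes per direction and line. Other values were chosen after they were seen. A gene that this rule selects and a marker gene are not reported here. The members and lists were chosen with earlier results of these data known, and support nothing independently. The script that fits the regions was tested on simulated data. Alternatives were TMM and DESeq2 (1.42.0) scaling, DESeq2's Wald test, limma 3.58.1, other filters and windows, bins, DAR cutoffs, GC trend removal, a block for the replicate number and fits without each library. Without a filter the same regions were tested as with it (79177 in DU-145, 46298 in BT-549 and 32671 shared), so that setting could not change a call.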

Additional observations from a re-analysis of the deposited data

Results flagged for a closer look

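The effect of DOX differed between DU-145 and BT-549 by the interaction term of edgeR's quasi-likelihood test at 15 regions. Values are the log2 fold change in DU-145 minus that in BT-549. At EGFR they were −0.65 at the promoter (0.5 kb), 2.38 at 44.8 kb, 1.54 at 46.5 kb, 1.09 at 54.8 kb and 1.21 at 67.8 kb. Further along the EGFR window they were 1.80 at 110.0 kb, 1.04 at 110.9 kb, 1.47 at 112.0 kb, 0.84 at 167.1 kb, 1.30 at 193.7 kb and 2.24 at 195.2 kb. The values were 0.68 at the ERBB2 promoter, 0.83 at 40.4 kb past the ERBB2 start, 0.43 at the ERBB3 promoter and 1.78 at 670.5 kb in ERBB4. At 67.8 kb of EGFR, both lines fell, and BT-549 fell further.

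The groups hold 3 libraries each, which is too few for the test for single outlying samples, and no such test was made.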

How the results depend on the processing

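No called value reversed its direction, and the sums of the AREG, TGFA and ERBB4 windows in DU-145, which were not called, changed sign with TMM factors (−0.08, −0.03 and −0.09). The number of regions higher with DOX in DU-145 was 34, and 19 with the GC trend removed and 7 at the DAR cutoffs. The number lower was 13, and 25 with TMM factors, 25 with DESeq2 size factors, 23 with DESeq2's Wald test, 26 with the GC trend removed, 20 as bins of 100 bp and 1 at the DAR cutoffs. In BT-549 the number higher was 5, and 8 with DESeq2 size factors, 9 with the GC trend removed, 2 with windows of 5 kb on each side and 0 at the DAR cutoffs. The number lower was 5, and 9 as bins and 3 at the DAR cutoffs. Leaving out 1 library gave 30 to 32 higher and 11 to 14 lower regions in DU-145 and 2 to 5 higher and 4 to 6 lower in BT-549. In vehicle cells it gave 10 to 11 higher and 16 to 17 lower regions, and between the DOX effects 12 to 15 differences. The other 113 values of these counts under an alternative stayed within 1.5 times. The causes of these shifts were not tested. Of the promoters, window sums and peak counts, 295 values under an alternative kept their call or moved by less than the replicate SD, 17 lost the call, 9 gained it and 9 moved further.

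The labels number the replicates 1 to 3 in each group. Vehicle and DOX libraries of the same number did not deviate together (correlations of 0.041, 0.033 and −0.035 in DU-145 and 0.0048, 0.069 and 0.038 in BT-549), so they share only a number. With that number as a replicate block, 35 regions were higher and 13 lower in DU-145 and 4 and 5 in BT-549, 11 were higher and 17 lower between the lines and 14 differed in the DOX effect. With the block, the EGF promoter in BT-549 (log2 fold change 0.81) and the difference in the DOX effect at the ERBB2 promoter were not called.

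The DOX libraries of BT-549 had the lowest summed coverage of the 12 libraries, at most 3267024.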
